A study of Mus musculus with 9 samples.

Results

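Trpm2 and 7 further genes of ion channels known from macrophages, Trpm7, Trpv2, Kcnn4, Kcnk6, Hvcn1, Clic1 and Clic4, were taken by symbol from a table of 15434 genes, and all 8 were found in it. The table holds RNA sequencing of macrophages sorted from the testis, the epididymis (the duct in which sperm mature) and the brain of C57BL/6J mice, adult per the series title, with 3 libraries per organ. No group was cultured or treated, and every group was sorted the same way, as live cells with CD45, CD11b and F4/80 and without Ly6C and CD11c. The brain cells are called microglia in the titles. The labels give mouse number 1 for all testis libraries, 2 for all epididymis libraries and 3 for all brain libraries, so organ and mouse cannot be told apart, and the spread between libraries may be technical. Values are normalised reads, the reads of a gene after division by a scaling factor of its library. The 8 genes were proposed with their organ values in view, so their differences between organs are a description and carry no test.

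Ion channels let ions cross membranes and set the voltage, calcium and pH of a macrophage. Trpm2 is a calcium-permeable cation channel that opens when ADP-ribose, a product of oxidative stress, binds inside the cell together with calcium. Trpm7 joins a channel for magnesium, zinc and calcium to a kinase, and Trpv2 is a cation channel that has been linked to phagocytosis. Kcnn4 and Kcnk6 let potassium out, the first when calcium acts through its bound calmodulin and the second as a background leak. Hvcn1 passes protons out of the cell or into the phagosome while the NADPH oxidase is active. Clic1 and Clic4 belong to the chloride intracellular channel proteins, which exist in a soluble and a membrane form.

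Reads on genes numbered 2727092 to 4458688 per library, and 1 read was worth between 0.808 and 1.11 normalised reads. Principal component 3 of the log2 values (14.2% of the variance) gave testis replicate 1 and epididymis replicate 3 scores of 99.1 and 97.2, unlike their fellow replicates. All 12 sort-gate and macrophage markers checked, such as Csf1r and C1qa, were read in every organ, and together they took 65.1 to 82.1 of every 10000 reads in testis, 126 to 144 in epididymis and 150 to 158 in brain. The 9 microglia markers in the table took 55.2 to 61.6 of every 10000 reads in brain, 13.1 to 18.3 in epididymis and 1.80 to 3.19 in testis, where Crybb1 had no read. Markers of other cells were present too. The 8 monocyte genes in the table took 5.17 to 7.14 of every 10000 reads in testis, 0.235 to 1.24 in epididymis and 0.469 to 0.854 in brain, and the 10 T and NK cell genes 2.14 to 2.82, 0.517 to 0.637 and 0.301 to 0.510. The 8 Leydig cell genes took 4.32 to 10.9 in testis and at most 0.935 in the other organs, and the 9 neutrophil genes 0.0247 to 0.118 in testis, 0.165 to 0.477 in epididymis and 1.31 to 2.45 in brain. In bulk libraries fewer cells of a type and less RNA per cell cannot be told apart.

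Trpm2 had the largest ratio between organ means of the 8 genes. It read 2207, 2201 and 2166 in the 3 epididymis libraries, 668, 682 and 591 in the brain libraries, and 256, 135 and 223 in the testis libraries. The 3 organs did not overlap in any pairing, with epididymis highest, brain between and testis lowest. The means were 2192 ± 22.4 (SD, n = 3) in epididymis, 647 ± 49.0 in brain and 205 ± 62.5 in testis. The epididymis mean was 10.7 times the testis mean and 3.39 times the brain mean, and the brain mean was 3.16 times the testis mean. On the log2(value + 1) scale testis minus epididymis was -3.47 (SE 0.26), testis minus brain -1.70 (SE 0.26) and epididymis minus brain 1.76 (SE 0.26). The testis minus epididymis difference was -3.65 without testis replicate 1 and -3.47 without epididymis replicate 3, the libraries that stood apart. The lowest epididymis library stood 8.47 times above the highest testis library and 3.17 times above the highest brain library.

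The epididymis libraries agreed closely for Trpm2. Their coefficient of variation was 1.02%, against 2.11% that counting alone gives 1 library at that level. In brain it was 7.57% (counting alone 3.88%) and in testis 30.6% (counting alone 6.70%). Read counts of Trpm2 were 2428, 2347 and 2009 in epididymis and 247, 167 and 261 in testis, so no library lacked reads. Neutrophils also express Trpm2, and the summed level of their markers was highest in brain. Among them S100a8, S100a9 and Ly6g were without reads in testis, with means of 3.13 ± 5.42, 1.52 ± 2.62 and 15.2 ± 26.2 in epididymis. In brain S100a8 and S100a9 stood at 85.3 ± 21.1 and 104 ± 95.8, and Ly6g had no read. Csf3r stood at 6.10 ± 5.29 in testis, 74.1 ± 24.5 in epididymis and 259.5 ± 66.1 in brain. Mmp9 was higher in testis, at 13.8 ± 23.9, than in epididymis, where it had no read. Retnlg, Camp, Ngp and Ltf had no read in testis or epididymis. By organ means 0 of the 9 neutrophil genes fell in the order of Trpm2. Markers of the epididymal epithelium were highest where Trpm2 was highest. The 11 of them in the table took 1.55 to 1.97 of every 10000 reads in epididymis, at most 0.363 in testis and at most 0.028 in brain, with Defb20 at 217 ± 72.0 and Adam7 at 194 ± 92.0 in epididymis and no read of Krt8 there. The part of other cells in the Trpm2 level was not tested.

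**Figure D1:**
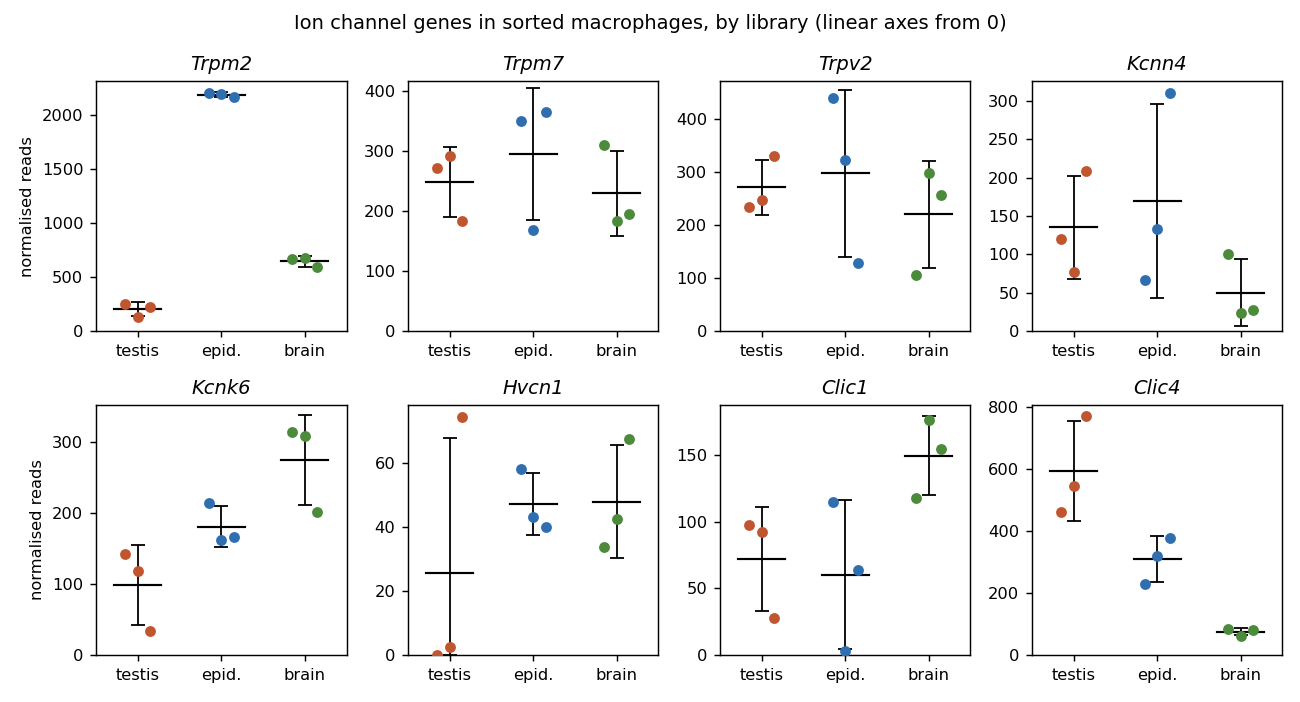
Normalised reads of the 8 ion channel genes in each of the 9 libraries, on linear axes from 0. Points are libraries, horizontal lines are organ means and bars are 1 SD (n = 3), drawn down to 0 at most. Trpm2 sits between 2166 and 2207 in epididymis and between 135 and 682 elsewhere, and Clic4 falls from testis to epididymis to brain without overlap.

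Trpm2 lies on chromosome 10 from 77907722 to 77970563 on the minus strand of GRCm38. Its annotated exons share 44 and 47 bases with a pair of small RNA gene models, Gm22394 and Gm22871, neither of which is in the table. Clic4 lies on chromosome 4 from 135213969 to 135272814, also on the minus strand. The stretches before the RefSeq starts of Trpm2 and Clic4 are shown because these were the members whose organs lay apart in all 3 pairings, with epididymis highest for Trpm2 and testis highest for Clic4. They are from RefSeq on GRCm38.p6, chr10:77969873-77970122 and chr4:135272815-135273010, and are printed 5′ to 3′ on the minus strand, with bases in annotated exons of the gene left out. The Trpm2 stretch precedes the RefSeq start but lies inside the GENCODE span given above, which a longer noncoding transcript extends, in an intron of that transcript. Capitals mark the GC box letters GGGCGG on either strand.
Trpm2: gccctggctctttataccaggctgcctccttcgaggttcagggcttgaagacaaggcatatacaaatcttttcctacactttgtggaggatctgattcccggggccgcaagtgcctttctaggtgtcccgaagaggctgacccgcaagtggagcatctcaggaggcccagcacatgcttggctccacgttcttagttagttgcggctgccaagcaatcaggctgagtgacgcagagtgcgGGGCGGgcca
Clic4: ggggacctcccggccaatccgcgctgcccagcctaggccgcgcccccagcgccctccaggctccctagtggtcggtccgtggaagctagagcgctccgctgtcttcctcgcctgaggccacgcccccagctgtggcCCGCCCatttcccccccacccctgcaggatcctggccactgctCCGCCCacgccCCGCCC
The 250 bases before the RefSeq start of Trpm2 held 1 GC box and 1 TATAAA, letters found on either strand in 32.7% and 12.4% of the 32851 RefSeq windows of that length. The TATAAA lies on the opposite strand, printed as tttata near the 5′ end of the stretch, away from the RefSeq start. The 196 bases before the annotated Clic4 exons held 3 GC boxes, and 30.9% of windows of that length held at least 1. Those windows lie directly before a RefSeq start, whereas the Clic4 stretch ends farther upstream, so the positions are not matched. Neither stretch held AGGAAGT or TGANTCA, searched on both strands, which 7.69% and 6.75% of windows of 250 bases hold. The base composition also differed, with 56.8% G or C and 10 CpG pairs before Trpm2 and 74.5% and 16 before Clic4. A match to letters is a description of the sequence and not a measured site. Of the 8 genes, 6 had a promoter in the RefSeq table, and Kcnk6 and Hvcn1 had none there.

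The other cation channels of the TRP family showed no comparable spread between organs. Trpm7, the channel with a kinase domain, read 271, 292 and 183 in testis, 350, 169 and 365 in epididymis and 311, 183 and 196 in brain. Every organ overlapped every other, and the means were 249 ± 57.8, 295 ± 109 and 230 ± 70.4. Its log2 differences were -0.19 (SE 0.40) for testis minus epididymis, 0.13 (SE 0.40) for testis minus brain and 0.32 (SE 0.40) for epididymis minus brain. Trpv2 read 235, 247 and 331 in testis, 440.0, 323 and 129 in epididymis and 106, 298 and 257 in brain. These values overlapped in all pairings too, with means of 271 ± 52.2, 297 ± 157 and 220.0 ± 101. For testis minus epididymis the Trpv2 means and the log2 difference of 0.02 (SE 0.49) point opposite ways. Trpm7 lies on chromosome 2 from 126791565 to 126876230 and Trpv2 on chromosome 11 from 62574486 to 62600515.

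Within a library the balance of the TRPM pair shifted. Per kilobase of annotated exon, Trpm2 stood at 5.38 to 11.8 times Trpm7 in the epididymis libraries, at 1.95 to 3.39 times in the brain libraries and at 0.420 to 1.11 times in the testis libraries. This ratio is free of the library factor. The organs did not overlap in it, as for Trpm2 itself.

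The potassium channel genes differed in which organ had the highest mean, epididymis for Kcnn4 and brain for Kcnk6. For each gene that organ overlapped the next one. Kcnn4, the calcium-activated channel, read 120.1, 77.6 and 209 in testis, 66.4, 133 and 310 in epididymis and 100.2, 23.4 and 27.6 in brain. Brain held the lowest libraries, but its replicate 1 reached into the range of both other organs, and within epididymis the highest library stood 4.68 times above the lowest. The means were 135 ± 66.9, 170.0 ± 126 and 50.4 ± 43.2, and the log2 difference from brain was 1.61 (SE 0.75) for testis and 1.77 (SE 0.75) for epididymis. Testis minus epididymis was -0.17 (SE 0.75) for Kcnn4, and 0.40 without epididymis replicate 3. Kcnk6, the leak channel, read 142, 119 and 34.2 in testis, 214, 161 and 166 in epididymis and 313, 308 and 202 in brain. All testis libraries lay below all others, while epididymis and brain overlapped. The Kcnk6 means were 98.3 ± 56.7, 180.3 ± 28.9 and 274 ± 62.8, with log2 differences of -1.09 (SE 0.52) for testis minus epididymis and -1.68 (SE 0.52) for testis minus brain. Epididymis minus brain was -0.59 (SE 0.52). The gap between testis and epididymis was narrow, the lowest epididymis library being 1.14 times the highest testis library. Without testis replicate 3 that log2 difference was -0.46. Both genes lie on chromosome 7, Kcnn4 from 24370263 to 24386690 and Kcnk6 from 29221926 to 29232515.

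Hvcn1, the proton channel gene, had the lowest counts of the 8. It read 0, 2.42 and 74.4 in testis, 58.2, 43.1 and 39.9 in epididymis and 33.7, 42.4 and 67.5 in brain. These rest on 0, 3 and 87 reads in testis, so testis replicate 3 alone carried that organ's mean of 25.6 ± 42.3, above every library of the other organs. Epididymis and brain stood at 47.1 ± 9.76 and 47.9 ± 17.6 and overlapped. The log2 difference was -2.90 (SE 1.5) for testis minus epididymis, and -4.68 without testis replicate 3 and -1.56 without testis replicate 1. It was -1.37 with a pseudocount of 10, -0.87 by edgeR and -0.88 by DESeq2, so its size rests on the scale. Hvcn1 lies on chromosome 5 from 122206804 to 122242297, and 1574 of its 3563 exonic bases overlap exons of Tctn1 on the opposite strand. Since the library kit does not mark strand, reads of the pair cannot be told apart there. Tctn1 stood at 70.3 ± 21.4 in testis, 119.8 ± 20.8 in epididymis and 97.7 ± 25.3 in brain.

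The chloride intracellular channel genes went opposite ways between testis and brain. Clic4 read 463, 545 and 773 in testis, 229, 319.8 and 377 in epididymis and 83.8, 62.4 and 80.0 in brain. The 3 organs were apart in every pairing, although the lowest testis library was only 1.23 times the highest epididymis library. The means were 594 ± 161, 309 ± 74.7 and 75.4 ± 11.4, so testis stood at 7.87 times and epididymis at 4.09 times the brain mean. The log2 difference was 0.94 (SE 0.36) for testis minus epididymis, 2.94 (SE 0.36) for testis minus brain and 2.00 (SE 0.36) for epididymis minus brain. Clic1 read 97.3, 92.1 and 27.4 in testis, 115, 2.81 and 63.6 in epididymis and 117, 176 and 155 in brain. All brain libraries lay above all others, but only just, the lowest being 1.03 times the highest epididymis library. Epididymis replicate 2 held 3 reads of Clic1 against 126 and 59 in replicates 1 and 3. The Clic1 means were 72.3 ± 39.0, 60.3 ± 55.9 and 149 ± 29.7. The log2 difference was -1.22 (SE 1.08) for testis minus brain and -2.28 (SE 1.08) for epididymis minus brain, or -0.78 without epididymis replicate 2. Testis minus epididymis was 1.06 (SE 1.08) and turned to -0.44 without that library. By edgeR and DESeq2 it was 0.26, and epididymis minus brain was -1.35 and -1.31.

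Per kilobase of exon, Clic4 stood at 0.0970 to 0.195 times Clic1 in brain and at 1.30 to 7.73 times in testis. In epididymis the ratio ran from 0.547 to 31.1, the highest in the library with 3 Clic1 reads. Fibroblasts, smooth muscle and endothelium also express Clic4. Their 9 markers in the table took 1.09 to 1.63 of every 10000 reads in testis, 0.455 to 1.38 in epididymis and 1.10 to 1.60 in brain. By organ means 5 of the 9 fell in the order of Clic4, among them Acta2 at 159 ± 11.3, 24.7 ± 41.9 and 0.743 ± 1.29 in testis, epididymis and brain, while Kdr was highest in brain at 214 ± 85.5. The 11 Sertoli and germ cell markers also fell in that order as a sum, with 2.62 to 5.61 of every 10000 reads in testis, 2.09 to 3.03 in epididymis and 0.221 to 0.345 in brain. Testis and epididymis overlapped in that sum. By organ means 5 of the 11 fell in the order of Clic4 and 4 were highest in epididymis. The summed levels of monocyte, T and NK and Leydig cell markers were highest in testis. The part of all these cells in the Clic4 level was not tested. Clic1 lies on chromosome 17 from 35049966 to 35058749.

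**Figure D2:**
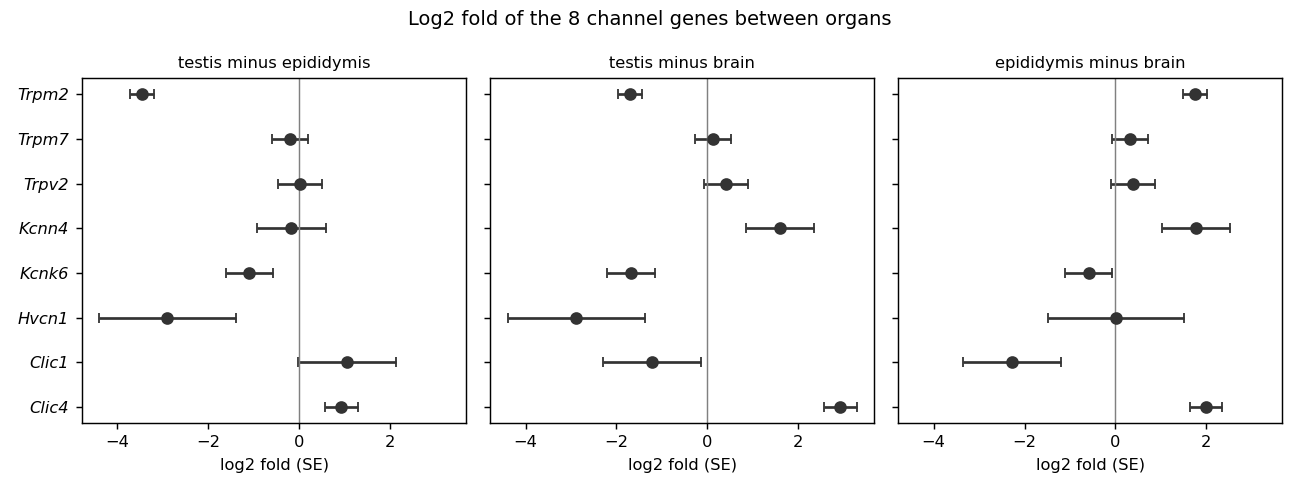
Log2 difference of each gene between organs on the log2(value + 1) scale, with bars of 1 SE from the linear model over 9 libraries. Positive values are higher in the organ named first. Trpm2 and Clic4 lie several SE from 0 against brain in opposite directions for testis, while Trpm7 and Trpv2 stay within 1 SE of 0.

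The rank of the genes within an organ also changed, read per kilobase of annotated exon so that lengths do not decide it. In epididymis Trpm2 came first at 176 ± 1.80 per kilobase, and its lowest library (174) stood above the highest library of any other member (98.1, for Trpv2). In testis the same gene was next to last at 16.4 ± 5.02 per kilobase, and Clic4 led at 90.3 ± 24.4, ahead of Trpv2 at 60.4 ± 11.6, whose range overlapped that of Clic4. In brain Clic1 led at 83.1 ± 16.5, with Kcnk6 at 66.1 ± 15.1 and Trpm2 at 51.9 ± 3.93. Clic1 and Kcnk6 overlapped there, as did Kcnk6 and Trpm2, and Clic4 and Kcnn4 were lowest at 11.5 ± 1.73 and 9.85 ± 8.44. Trpv2 ranked 2, 2 and 4 in testis, epididymis and brain, and Hvcn1 ranked 8, 8 and 6. With the length of the longest coding transcript in place of all exons, chosen after seeing the data, Trpm2 ranked 6, 1 and 2 and Clic4 1, 4 and 7 in the same organs.

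**Figure D3:**
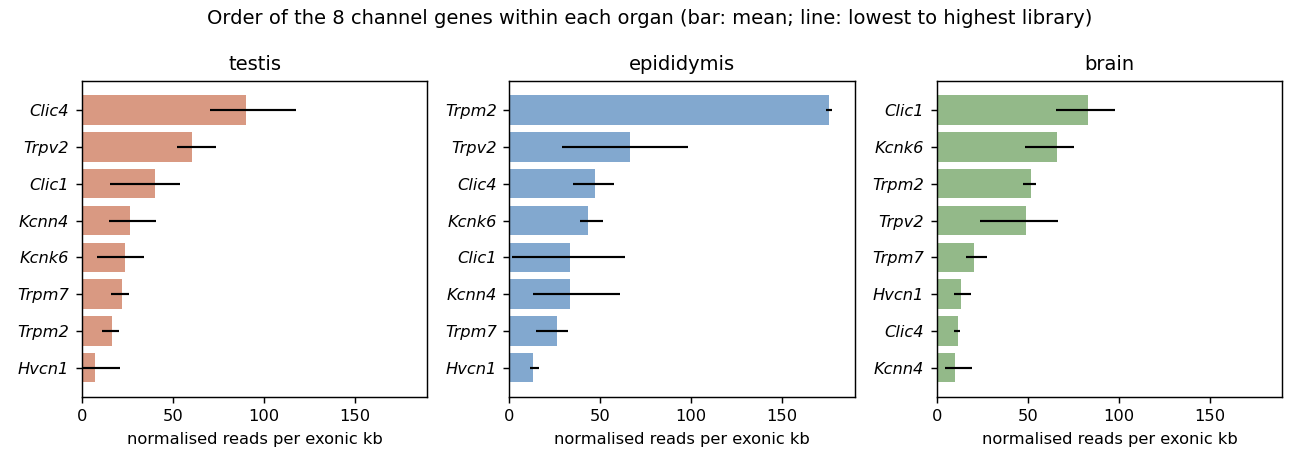
The 8 genes ordered by normalised reads per kilobase of annotated exon in each organ. Bars are means of 3 libraries and black lines run from the lowest to the highest library. Trpm2 leads in epididymis at 176 and is next to last in testis at 16.4.

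Together the 8 genes took 10.7 to 11.6 of every 10000 reads in epididymis, 5.04 to 5.92 in brain and 4.19 to 5.20 in testis. Trpm2 alone made up 59.9% to 65.7% of those reads in epididymis, 37.5% to 38.5% in brain and 8.94% to 16.1% in testis. Between testis and epididymis 3 of the 8 genes did not overlap, against 19.8% of the 11766 genes tested. Clic4 was the gene higher in testis, and Trpm2 and Kcnk6 were higher in epididymis (background 8.80%). Between testis and brain 4 of 8 did not overlap (background 30.8%), with Clic4 higher in testis (15.9%) and Trpm2, Kcnk6 and Clic1 higher in brain (14.9%). Between epididymis and brain it was 3 of 8 (background 22.0%), with Trpm2 and Clic4 higher in epididymis (10.5%) and Clic1 higher in brain (11.5%). Trpm2 and Clic4 did not overlap in any of the 3 pairings, as did 4.31% of tested genes. At an adjusted p below 0.05 in the limma fit over all tested genes, 1 of the 8 was called between testis and epididymis, higher in epididymis, where 4.39% of all genes were called, 2.49% higher in testis and 1.90% higher in epididymis. Between testis and brain 1 of the 8 was higher in testis and 1 in brain (background 11.7%, split into 6.82% and 4.83%). Between epididymis and brain 2 of 8 were higher in epididymis and 0 in brain (background 4.79%, split into 2.99% and 1.80%). The genes called were Trpm2 in each comparison and Clic4 in both comparisons with brain. Without the variance trend Trpm2 was not called between epididymis and brain. Kcnk6 was also called between testis and brain with a pseudocount of 10, with the same total per library and without testis replicate 1. The members were chosen on these same contrasts, so nothing is read from these counts. All 8 passed the filter on low values, with Hvcn1 reaching a value of 10 in 7 libraries, Clic1 in 8 and the others in all 9.

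Other ion channel genes and partners were taken from lists by family, of which 104 were in the table and 77 passed the filter. The lists were written from channel families and known partners rather than from how genes moved, but with earlier results of these data known. Their p values may therefore not be free of selection. The genes were tested with limma in the fit over all genes (Benjamini-Hochberg adjusted p below 0.05). Of the 77, 1 was called between testis and epididymis (1.30%, background 4.39%), with a median log2 difference of -0.09 against 0.10 over all tested genes. Between testis and brain 5 were higher and 2 lower in testis (9.09%, background 11.7%), with a median of -0.33 against -0.07. With libraries rescaled to the same total that split was 4 and 3. Between epididymis and brain 4 were higher and none was lower in epididymis (5.19%, background 4.79%), with a median of -0.15 against -0.13, and rescaled to the same total 4 were higher and 1 lower. The shares called were near or below the background.

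No gene of the TRP superfamily outside the members was called by limma. Of 26 listed 6 were tested, and in epididymis against brain 3 of these had an unadjusted p below 0.05, against 0 in the other comparisons. edgeR called none in any comparison and DESeq2 called 1, Pkd2l2, lower in epididymis than in brain, named after its values were seen. Trpm4, a calcium-activated cation channel, stood at 45.2 ± 52.0 in testis, 85.9 ± 37.5 in epididymis and 93.7 ± 54.3 in brain. None of the 14 tested potassium channel genes was called by limma, edgeR or DESeq2, with 2, 1 and 2 at an unadjusted limma p below 0.05 in testis against epididymis, testis against brain and epididymis against brain. Kcnk13, the channel that sets resting potassium conductance in microglia, stood at 19.4 ± 12.7 in testis, 17.0 ± 28.6 in epididymis and 61.9 ± 26.2 in brain. Kcnj2, an inward rectifier, stood at 34.4 ± 29.8, 26.0 ± 21.1 and 11.7 ± 9.81. Kcna3, a voltage-gated channel of microglia and T cells, was below the filter, with reads in 1 testis and 1 epididymis library and none in brain.

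Among 20 tested chloride channel genes Ano10, of the anoctamin family, was lower in testis than in epididymis. It read 75.6, 141 and 139 in testis and 351, 371 and 281 in epididymis, without overlap (log2 difference -1.53, SE 0.38, limma adjusted p = 0.033). The call was lost in 10 of 16 alternative analyses, with an adjusted p of up to 0.12. Lrrc8a, the required subunit of the volume-regulated anion channel, stood at 54.4 ± 12.3 in testis, 62.4 ± 48.8 in epididymis and 164 ± 68.9 in brain and was not called, and its exons are shared with another gene model on the same strand.

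Of 18 tested genes of calcium entry and release, 1 rose and 1 fell in testis against brain (11.1%, background 11.7%). None was called in the other comparisons by limma, edgeR or DESeq2, with 1 (testis against epididymis) and 2 (epididymis against brain) at an unadjusted limma p below 0.05. Stim2, a calcium sensor of the endoplasmic reticulum, read 442, 374 and 324 in testis and 30.1, 80.3 and 99.5 in brain (log2 difference 2.58, SE 0.53, limma adjusted p = 0.0044), and it was called in all 16 alternatives. Itpr2, an inositol trisphosphate receptor that releases stored calcium, read 782, 1201 and 805 in testis and 1796, 2071 and 1846 in brain (log2 difference -1.06, SE 0.27, limma adjusted p = 0.02), a call lost in 6 of 16 alternatives with an adjusted p of up to 0.19. In epididymis Stim2 stood at 179 ± 100.3 and Itpr2 at 1043 ± 446. Neither gene overlapped there with brain, while Itpr2 overlapped with testis. Itpr2 was called between epididymis and brain in 3 of 16 alternatives. The pore subunit Orai1 stood at 968 ± 80.1, 998 ± 202 and 1258 ± 237 in testis, epididymis and brain, and the sensor Stim1 at 193 ± 73.6, 196 ± 110 and 210 ± 71.8, none of them called. Piezo1, a mechanically gated channel which shares exonic bases with Ctu2 on the other strand, stood at 28.1 ± 25.8, 37.9 ± 34.5 and 73.4 ± 7.29 and was not called.

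Of 11 tested genes that make or break ADP-ribose or encode calmodulin, none was called between testis and epididymis (background 4.39%) by limma, edgeR or DESeq2, with 1 by each at an unadjusted p below 0.05. Parp1, the main source of poly(ADP-ribose), stood at 556 ± 300 in testis, 476 ± 138 in epididymis and 477 ± 29.3 in brain, and was not called. Cd38, an enzyme that makes ADP-ribose, was below the filter at no more than 5.13 in any library. Against brain limma called 2 of the 11 higher in testis (18.2%, background 11.7%) and 2 higher in epididymis (18.2%, background 4.79%), all calmodulin genes. Calm3, which encodes calmodulin, was lower in brain, at 355 ± 223 in testis, 349.5 ± 148 in epididymis and 91.6 ± 47.6 in brain (limma adjusted p = 0.03 and 0.044 against brain). Those Calm3 calls were lost in 7 and 9 of 16 alternatives, with an adjusted p of up to 0.14 and 0.20. Calm2, a calmodulin gene with far more reads, was not called in any comparison and was named after its values were seen. It stood at 6218 ± 1059 in testis, 4308 ± 1546 in epididymis and 5921 ± 1022 in brain.

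The subunits of the NADPH oxidase, which works beside the proton channel, differed from one another. Of 8 tested, 2 rose and 1 fell in testis against brain (37.5%, background 11.7%), and 2 rose in epididymis against brain (25%, background 4.79%). None was called between testis and epididymis (background 4.39%) by limma, edgeR or DESeq2, with 1 at an unadjusted p below 0.05 by each. Cybb, the catalytic subunit, read 2160, 2508 and 2660 in testis, 3391, 2911 and 3161 in epididymis and 56.5, 42.4 and 32.0 in brain. Its log2 difference from brain was 5.81 (SE 0.25, limma adjusted p = 1.3e-09) in testis and 6.18 (SE 0.25, limma adjusted p = 4.6e-10) in epididymis, called in all 16 alternatives. Its membrane partner Cyba stood at 1199 ± 169, 1207 ± 275 and 540 ± 180 in testis, epididymis and brain (limma adjusted p = 0.0077 and 0.015 against brain), calls lost in 1 and 5 of 16 alternatives with an adjusted p of up to 0.12 and 0.21. Ncf1, a cytosolic subunit that shares exonic bases with Gtf2ird2 on the other strand, read 365, 304 and 382 in testis and 1036, 499 and 788 in brain, lowest in testis (log2 difference -1.09, SE 0.29, limma adjusted p = 0.022). That call was lost in 4 of 16 alternatives, with an adjusted p of up to 0.16. Hvcn1 itself stood at about the same level in epididymis and brain, 47.1 ± 9.76 and 47.9 ± 17.6.

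**Figure D4:**
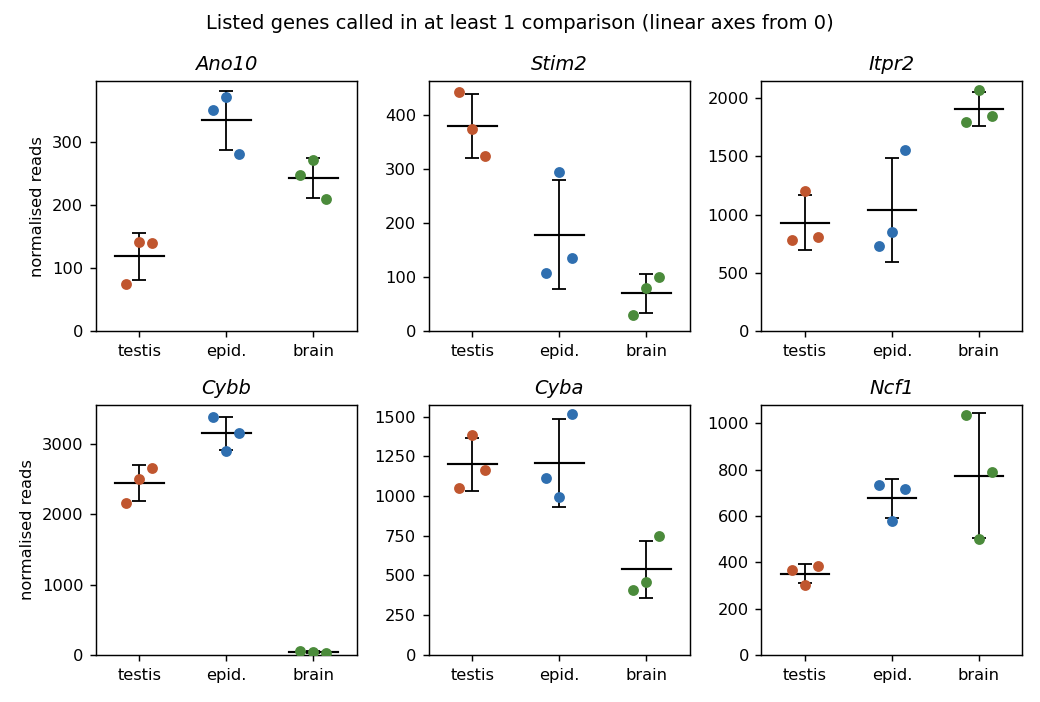
Normalised reads by library of the 6 chloride channel, calcium entry and release and NADPH oxidase genes called in at least 1 comparison, on linear axes from 0. Points are libraries, horizontal lines are organ means and bars are 1 SD (n = 3). Cybb lies between 2160 and 3391 in testis and epididymis and between 32.0 and 56.5 in brain.

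The genes closest to Trpm2 in profile were found as the smallest root mean square difference, over the 9 libraries, of log2(value + 1) centred on each gene's own mean. Among 11126 tested genes with established symbols they were Abcc3 (0.477), Pmepa1 (0.482), Amz1 (0.566), Galnt7 (0.594) and Fzd7 (0.627), against a median of 1.90 over all of them. All 5 had their highest mean in epididymis and their lowest in testis, an order that the choice by likeness to Trpm2 favours. Pmepa1 stood at 6064 ± 294 in epididymis, 2975 ± 693 in brain and 445 ± 110 in testis, and Abcc3, a transporter gene, at 222 ± 40.1, 111 ± 38.5 and 32.3 ± 12.6. Amz1 stood at 3077 ± 443, 1381 ± 173 and 725 ± 413.

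**Figure D5:**
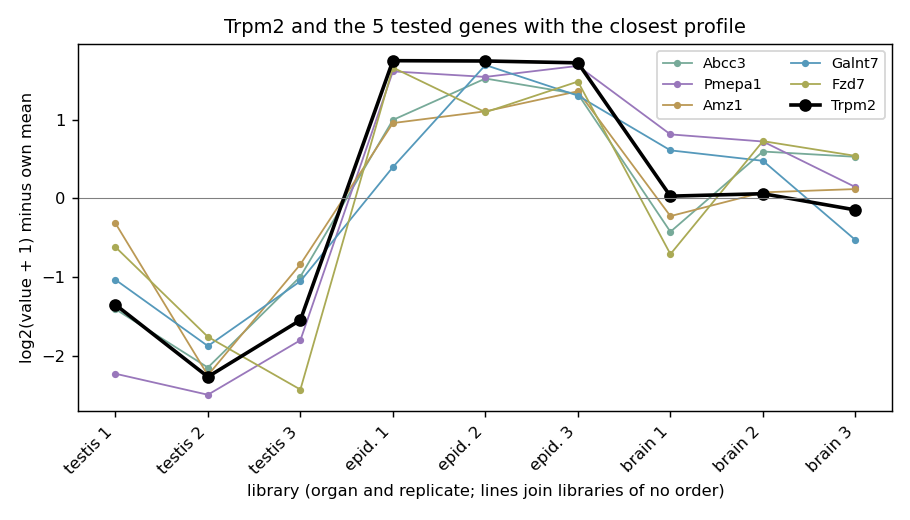
Log2(value + 1) of Trpm2 (black) and of the 5 tested genes with the closest profile, each minus its own mean over the 9 libraries. Lines join libraries only to guide the eye, since replicates have no order. All 6 genes have their highest organ mean in epididymis, which the choice by profile favours, and Trpm2 varies less between epididymis libraries than the others.

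For Clic4 the closest genes were H2.D1, spelled as in the table (0.336), Rps28 (0.341) and Rps4x (0.361), with a root mean square of 1.25 for Clic4 around its own mean. H2.D1, an MHC class I gene, stood at 11282 ± 124 in testis, 7660 ± 770 in epididymis and 1711 ± 154 in brain. The closest genes to Kcnk6 were Ppp2r3d (0.304), Tmed3 (0.314) and Fbxl12os (0.329), and to Kcnn4 Lig1 (0.571), Baiap2 (0.581) and Rfk (0.612). For Trpm7 they were Rbm22 (0.163), Phactr2 (0.181) and Chrac1 (0.189), and for Trpv2 Olfr95 (0.287), Usp3 (0.316) and Tmbim1 (0.334). Hvcn1 and Clic1, with nearly empty libraries, were closest to Xpnpep3 (0.509), Olfr305 (0.708) and Map1s (0.731) and to Olfr354 (0.430) and Lrrc41 (0.511).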

How the data were processed

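RNA from sorted macrophages was converted to libraries from 10 ng (TruSeq RNA v2, a kit without strand marking) after a 40 minute digestion, per the labels' protocols. The signal values deposited by the authors are the reads of each gene after division by a scaling factor of the library. CASAVA 1.8, Bowtie2 2.2.1, Partek 6.6, DESeq2 and mm10 are named in the submitters' processing notes. What each tool did, how reads were counted and which annotation was used: not given in the sources used here. All values (100%) were whole multiples of 1 read within 1e-06, and the recovered reads were used only for edgeR 4.0.16 and DESeq2 1.42.0.

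The 11766 genes that reached 10 in 3 or more libraries were fitted as log2(value + 1), a scale on which changes of low genes depend on the pseudocount and can be understated, or exceed those of count models where libraries are near 0, with 1 mean per organ in limma 3.58.1 (R 4.3.3, variance trend, Benjamini-Hochberg adjustment per comparison). Replicates are numbered in the order of the sample list. GENCODE M21 (GRCm38, which mm10 denotes) gave gene positions and exons. The procedure was tested on simulated data. The members and lists were chosen with earlier results of these data known. Genes were named by rule: all members, up to 4 called genes per list and direction with a mean of at least 50, 12 fixed partners whatever their values, and the 5 genes closest to Trpm2 and 3 closest to each other member. Some genes that met this rule are not reported here, though counts include them. Alternatives changed the pseudocount, filter, variance trend, scaling, test, libraries fitted and each replicate.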

Additional observations from a re-analysis of the deposited data

How the results depend on the processing

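No paired analysis was possible because the labels give the organs no shared replicate numbers. The log2 differences of the 8 members moved by less than the spread between replicates in all 384 recomputed values. Much of this was fixed in advance. The filter, the variance trend, fitting only the 2 organs and leaving out a library of the organ not compared cannot move a difference. Leaving out 1 of 3 libraries can move an organ mean by only part of that organ's spread. The count is therefore no measure of stability. A difference within that spread can still change sign, as Clic1 testis minus epididymis did, from 1.06 to -0.44 without epididymis replicate 2, and Hvcn1 testis minus epididymis ran from -4.68 to -0.87. Across the recomputed values, Trpm2 testis minus epididymis ran from -3.65 to -3.19 and Clic4 testis minus brain from 2.71 to 3.10. Counts over all genes depended on the settings. Between testis and epididymis 516 genes were called, 293 higher and 223 lower in testis, or 227 and 307 with libraries rescaled to the same total, which moved the median of all genes by -0.15. The count was 192 without the variance trend, 250 with only the 2 organs compared, 783 by DESeq2, and 278 to 442 when 1 library was left out (301 without testis replicate 2, 278 without epididymis replicate 2 and 293 without epididymis replicate 3). Between testis and brain it was 1371, 803 higher and 568 lower, or 654 and 772 rescaled (median moved by -0.22), 837 without the trend, and 827 to 1457 in the leave-outs (827 and 889 without brain replicates 1 and 2). Between epididymis and brain it was 564, 306 without the trend, 913 by DESeq2, and 320 to 597 in the leave-outs (320 and 327 without brain replicates 1 and 2).

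Of the channel and partner panel, the 1 call between testis and epididymis, Ano10, became 0 without the filter, without the trend, by edgeR and with only the 2 organs compared, with 10, 9, 7 and 5 genes at an unadjusted p below 0.05, and 2 with the same total per library. The leave-outs gave 0 to 1 calls, 1 when testis replicate 3, brain replicate 2 or brain replicate 3 was left out and 0 in the others. The 7 calls between testis and brain became 3 without the trend and 4 to 8 in the leave-outs, 4 of them without brain replicate 1. The 4 calls between epididymis and brain became 1 without the trend and 2 to 4 in the leave-outs, 2 each without brain replicates 1 and 2. The cause was not tested. Low counts limit Hvcn1 and Clic1, whose lowest libraries held 0 and 3 reads.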
